A study of Mus musculus with 8 samples.

Results

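Trhr-Glis3 granule nuclei were studied among the hippocampal nuclei of wild-type C57BL/6J mouse pups at postnatal day 21, in which RNA (GEX) and open chromatin (ATAC) had been read from the same nuclei. Adult dams, listed as 8 weeks old, ate folic acid (FA) diets from 2 weeks before mating until the pups were taken. The diets held FA at 2 mg/kg (the MF group) or 20 mg/kg (the HF group). The pups used for nuclei were male by the methods of the study. Libraries MF1 and MF2 came from the first diet and HF1 and HF2 from the second. The labels do not say how many pups or litters stand behind a library, so p-values measure the spread between these libraries only. A nucleus was a member when it held at least 2 UMIs (unique RNA molecules) of Prox1, at most 1 UMI of Gad2 and fewer than 2 of the immature-stage genes Igfbpl1, Sema3c, Draxin and Cd24a, and when V minus D was 2 or more. V counts how many of Trhr, Ano2, Glis3, Chst9, Gmnc, Best3 and Trpc6 were detected, and D counts how many of Dsp, Lct, Tmem114, Gm11728, Gm42864, Npnt and Il1r1 were detected. The rule found 592 members among 11518 retained nuclei, with 114 and 139 in the MF libraries and 170 and 169 in the HF libraries. The members were thus selected on RNA counts of these nuclei, so no RNA difference between types is tested. The other mature granule nuclei passed the same gates at a lower V minus D. Of these, 117 had D minus V of 2 or more and are called Dsp-Lct nuclei (36, 23, 29 and 29 in MF1, MF2, HF1 and HF2), and 1526 lay between the types. Another 807 nuclei with 2 or more immature-stage genes are called immature granule nuclei.

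Granule neurons are the main excitatory cells of the dentate gyrus. They receive input from the entorhinal cortex, send mossy fibres to CA3, and in rodents are still being born after birth. Prox1 is the transcription factor that marks them. The dentate gyrus runs from a septal (dorsal) to a temporal (ventral) pole, and granule neurons differ in gene expression along that axis. Trhr, the receptor for thyrotropin-releasing hormone, is known as a ventral dentate marker and Lct, which encodes lactase, as a dorsal one. The position of the nuclei was not measured here.

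The retained nuclei of a library gave 20151562 to 29243072 UMIs. The members had a median of 9846 UMIs and 24698 ATAC counts per nucleus, against 9262 and 22775 in Dsp-Lct nuclei, 8014 and 21512 in nuclei between the types, and 4672 and 18532 in immature nuclei. Between 8 and 20 barcodes were shared by each pair of libraries. A Scrublet doublet score over 0.05 was found in 27.2% of the members and 23.9% of Dsp-Lct nuclei. These nuclei were kept, and values without them, called without doublets below, are given where they change a call. Scrublet was given an expected doublet rate of 0.03, so this cut leaves out many more nuclei than that rate. The parts of doublets and of fewer nuclei in such changes were not tested.

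The genes of the rule are described without a test, because they chose the members. Glis3, a zinc finger transcription factor, had at least 1 UMI in 95.8% of the members, and Trpc6, a cation channel gated by diacylglycerol, in 91.0%. Chst9, an enzyme that adds sulfate to N-acetylgalactosamine, was detected in 78.0%. The other genes of this side were each seen in a minority. Ano2, a calcium-activated chloride channel, was detected in 25.5%, the bestrophin Best3 in 22.6%, Trhr in 18.6% and Gmnc, a geminin relative known from multiciliated cells, in 17.6%. Most members thus carried Glis3, Trpc6 and Chst9 and had no UMI of Trhr. Trhr was seen in 18.4, 19.4, 17.1 and 19.5% of members in MF1, MF2, HF1 and HF2, in 26 of 1526 nuclei between the types (1.70%) and in 13 of 807 immature nuclei (1.61%). In the 8476 nuclei outside the granule groups, at a median of 5458 UMIs against 9846 in members, Trhr was seen in 2.67%, Ano2 in 2.61%, Best3 in 1.71%, Gmnc in 1.19%, Chst9 in 13.4%, Trpc6 in 12.5% and Glis3 in 26.2%. Over all libraries, the shares of Trhr between the types and in immature nuclei were thus below that outside. In MF1 the share was 3.17% between the types and 1.92% outside. Glis3 and Trpc6 were also present outside the members, in 59.0 and 35.9% of Dsp-Lct nuclei.

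Genes of the opposite side were detected in fewer members than Dsp-Lct nuclei, as the rule requires. Npnt, the matrix protein nephronectin, was detected in 28.9% of members and 78.6% of Dsp-Lct nuclei. The interleukin receptor Il1r1 was at 17.1 and 53.8%, the desmosome protein gene Dsp at 13.3 and 77.8%, and Lct at 8.78 and 45.3%. In the nuclei outside the granule groups, which are shallower, these genes were detected in 6.78, 3.47, 3.21 and 3.94%. Most members lay close to the border: 351 of 592 had V minus D of exactly 2. The commonest combinations were V of 3 with D of 1 (165 nuclei) and V of 2 with D of 0 (103). Just outside it, the 547 nuclei with V minus D of 1 had Trhr in 3.11%, Ano2 in 8.59%, Glis3 in 79.7% and Trpc6 in 68.7%. Just inside it, the 351 nuclei at 2 had them in 7.98, 13.7, 94.6 and 88.6%. V minus D had a single peak at 0 (709 nuclei) over the 2235 mature granule nuclei, with no gap at the border. Among those with Slc17a7 and little oligodendrocyte RNA, 351 lay at 0 and 393 at 1.

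**Figure D1:**
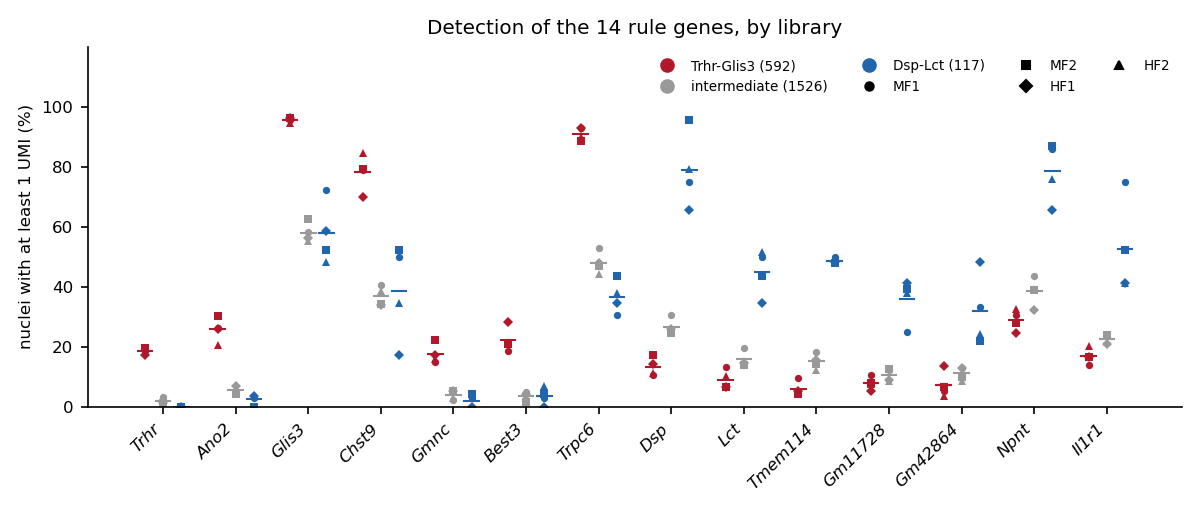
Share of nuclei with at least 1 UMI (y axis, %) of each of the 14 genes that V and D count (x axis) in members (red), nuclei between the types (grey, intermediate in the legend) and Dsp-Lct nuclei (blue), with 1 point a library and a bar at the mean of 4 libraries. Glis3, Trpc6 and Chst9 are found in most members, while Trhr stays between 17.1 and 19.5% in the 4 libraries.

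Granule neuron genes were detected in a larger share of members than of the nuclei outside the granule groups in every library, at the depths given above. C1ql3, a secreted synaptic protein of granule cells, was detected in 95.4% of members and 31.4% of the nuclei outside, and the related C1ql2 in 49.7 and 7.23%. The transcription factor Rfx3 was at 99.8 and 73.5%, Dock10 at 98.0 and 43.8%, the glutamate transporter Slc17a7 at 88.7 and 44.1% and Calb1, which encodes calbindin, at 74.3 and 22.05%. Neurod1, which is known from younger granule neurons too, was at 23.6 and 9.41%. Other neurons use several of these genes, so the share outside is not background alone. Marker lists of other cell types were summed too. Summed over 9 oligodendrocyte genes, the level was 760, 402, 1235 and 922 CPM (UMIs scaled to 1000000 in each library and type) in MF1, MF2, HF1 and HF2, against 485 to 792 in Dsp-Lct nuclei and 2542 to 3747 in nuclei between the types. Over 10 inhibitory neuron genes it was 1328, 1224, 1132 and 1416 CPM in members, 816, 1107, 747 and 941 CPM in Dsp-Lct nuclei, where Lhx6 was at 0, and 1941 to 2247 CPM between the types. The inhibitory sum was thus higher in members than in Dsp-Lct nuclei in every library. Most of it came from Adarb2, at 783 ± 122 CPM in members and 644 ± 98.2 CPM in Dsp-Lct nuclei, and Erbb4, at 350.4 ± 149 and 107 ± 77.6 CPM (SD, n = 4). The other 8 genes summed to 123 to 172 CPM in members, 99.5 to 180.1 CPM in Dsp-Lct nuclei and 157 to 224 CPM between the types. Whether these UMIs came from other cells was not tested. Both lists, none of whose genes was at 0 in the members, were thus lower in the members than in nuclei between the types in every library. So was a list of 8 astrocyte genes, at 409 to 572 against 437 to 648 CPM. A list of 9 vascular and choroid plexus genes was higher in members in every library, at 28.8 to 35.4 against 13.8 to 22.7 CPM. Over 6 microglia genes the level was 117 to 204 against 89.6 to 158 CPM, higher in members except in MF2. The comparisons with Dsp-Lct nuclei alone use all 592 members and all 117 Dsp-Lct nuclei. Those with the other mature granule nuclei as a whole use, on both sides, only nuclei with at least 1 UMI of Slc17a7 and under 0.3% of UMIs from a set of 4 oligodendrocyte genes, called limited nuclei: 499 members against 103 Dsp-Lct nuclei and 954 nuclei between the types together.

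Beyond the rule, few genes separated the members from Dsp-Lct nuclei in RNA. Of 7197 genes outside the rule with at least 20 CPM in the higher type, 4 were at least 2-fold higher in members on the scale of CPM + 5 in all 4 libraries (0.0556%) and 0 were as much lower (0%). The 4 were Kcnmb2, Scn9a, Tox3 and Col25a1. On CPM with nothing added, 7 genes were 2-fold higher (0.0973%), Lgmn, Adamts6 and Recql5 beside the 4, and 3 were 2-fold lower (0.0417%), namely Prmt1, Coa6 and Ackr3. With no fold required, 708 genes (9.84%) were higher in all 4 libraries and 944 (13.1%) lower. These are descriptions with no test, since the types were cut from the RNA of the same nuclei. The 2-fold count rose to 7 to 13 when a library was left out (10 without MF1, 13 without MF2, 13 without HF1 and 7 without HF2), as only 3 libraries then had to be on 1 side.

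The 4 genes that were 2-fold higher on CPM + 5 are given first. Scn9a, a voltage-gated sodium channel, was at 36.5, 67.5, 36.9 and 42.5 CPM in members of MF1, MF2, HF1 and HF2, and at 10.2, 11.3, 8.27 and 9.05 CPM in Dsp-Lct nuclei. The latter rest on 4, 3, 3 and 3 UMIs. Kcnmb2, an accessory subunit of the large-conductance potassium channel, was at 27.2, 29.0, 23.5 and 25.6 CPM in members. It had 1 UMI in all over the 117 Dsp-Lct nuclei, in MF2, and was at 14.9, 20.6, 18.4 and 24.95 CPM between the types. No library of members overlapped a Dsp-Lct library in either gene. Tox3, a nuclear protein with a high-mobility-group box, was at 35.7, 56.3, 42.6 and 23.3 CPM in members and 12.7, 7.503, 2.76 and 6.03 CPM in Dsp-Lct nuclei. Its Dsp-Lct values rest on 5, 2, 1 and 2 UMIs. Col25a1, a collagen anchored in the membrane, was at 225, 371, 253 and 308 CPM in members and 89.2, 169, 113 and 139 CPM in Dsp-Lct nuclei, a difference in log2(CPM + 5) of 1.16 ± 0.08 (SD, n = 4). The groups did not overlap in these genes either.

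The next genes by the same rule were Lgmn, Cdh13, Car10, Pcsk5, Tenm4, Col19a1, Adamts6 and Pdzrn4. Adamts6 was lower in members than in nuclei between the types in every library, at 19.2 to 25.6 against 27.4 to 43.4 CPM. Lgmn, at 26.2 to 44.1 CPM between the types, was lower in members except in MF1. The other genes named here were higher in members than between the types in every library. Cdh13, a cadherin without a transmembrane part, was at 241, 316, 270.2 and 310.1 CPM in members and 81.6, 158, 146 and 133 CPM in Dsp-Lct nuclei. Car10, a catalytically inactive carbonic anhydrase relative that binds neurexins, was at 347 to 388 and 132 to 196 CPM, and the teneurin Tenm4 at 299 to 414 and 133 to 220.2 CPM. Lgmn, a lysosomal protease, overlapped between the types, at 13.0 to 42.7 and 3.75 to 15.3 CPM, although it was higher within every library.

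Among the 12 genes named on the lower side, the largest mean differences in log2(CPM + 5) were those of Inf2, Bhlhe22, Ackr3 and Prmt1. Inf2, a formin that acts on actin, was at 44.3, 23.7, 34.0 and 29.2 CPM in members and 84.1, 75.0, 77.2 and 48.3 CPM in Dsp-Lct nuclei, a difference of -1.01 ± 0.36 (SD, n = 4). Prmt1, an arginine methyltransferase, was at 21.0, 14.2, 22.04 and 9.59 CPM in members and 48.4, 33.8, 44.1 and 24.1 CPM in Dsp-Lct nuclei. Both genes were apart in all libraries. Their Dsp-Lct values rest on 33, 20, 28 and 16 UMIs for Inf2 and on 19, 9, 16 and 8 UMIs for Prmt1. Stat3, a transcription factor of cytokine signalling, was at 13.9 to 24.9 and 35.9 to 48.8 CPM, the latter on 16, 13, 13 and 14 UMIs. The actin-binding Pfn1 differed by -0.70 ± 0.08 (SD, n = 4) and overlapped across libraries. It turned to 0.33 when both types were cut at a difference of 3. The other lower genes named by the rule were Coa6, Cstf2t, Chst1, Mrps33, Zdhhc23 and Snhg6.

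Against the other mature granule nuclei as a whole, fewer genes reached a given fold when limited nuclei were used for both comparisons. At 1.5-fold on CPM + 5 in all 4 libraries, 26 genes were higher and 6 lower against limited Dsp-Lct nuclei, and 5 and 0 against other limited mature nuclei. With all nuclei of the gate the counts were 27 and 9 against Dsp-Lct nuclei and 8 and 141 against the others. For limited nuclei, of 6936 genes outside the rule, 5 were at least 1.5-fold higher in members on CPM + 5 in all 4 libraries (0.0721%) and 0 lower (0%), while 669 (9.65%) were higher and 1001 (14.4%) lower by any amount. On CPM with nothing added 12 were 1.5-fold higher (0.173%) and 1, Igsf3, was lower (0.0144%). The 1.5-fold count on CPM + 5 was 12 without MF1, 10 without MF2, 12 without HF1 and 11 without HF2. Of the 12 genes named as higher against each comparison group, 6 were shared: Scn9a, Tox3, Car10, Kcnmb2, Cdh13 and Col25a1. Of the 12 named as lower against each, 1 was shared, Inf2. The members are on both sides of that overlap, and the Dsp-Lct nuclei are part of the second group. Among the other higher genes, Adcy8, a calcium-stimulated adenylyl cyclase, was at 79.9, 89.1, 91.0 and 84.4 CPM in members against 46.1, 57.9, 58.6 and 54.8 CPM. Kcnip3, a calcium-binding subunit of A-type potassium channels, was at 121, 95.04, 98.0 and 100.1 CPM against 75.0, 63.3, 63.6 and 62.8 CPM, and Trpm3, a cation channel, at 1983 to 2925 against 1387 to 1651 CPM. No library of members overlapped the others in these 3 genes.

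Lower in the members were Samd5, Igsf3, Astn2, Syndig1, Sh3kbp1, Spata13, Inf2, Sowaha, Man1a, Reln, Rgs6 and Elovl6. Syndig1, which acts at developing excitatory synapses, was at 58.5 to 98.5 CPM against 103 to 137 CPM, and Sh3kbp1, an adaptor of receptor endocytosis, at 101.2 to 129.6 against 145 to 176 CPM. Reln was at 8.75 to 14.1 CPM in members against 27.8, 76.4, 26.4 and 19.3 CPM. It is the defining gene of Cajal-Retzius cells. The other 5 markers of those cells summed to 7.101, 5.98, 19.3 and 7.58 CPM in the same members and 17.1, 26.05, 20.6 and 11.1 CPM in the others, lower in members in every library, and Lhx1 and Lhx5 were at 0 in all members. The part of such cells in the Reln difference was not tested.

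**Figure D2:**
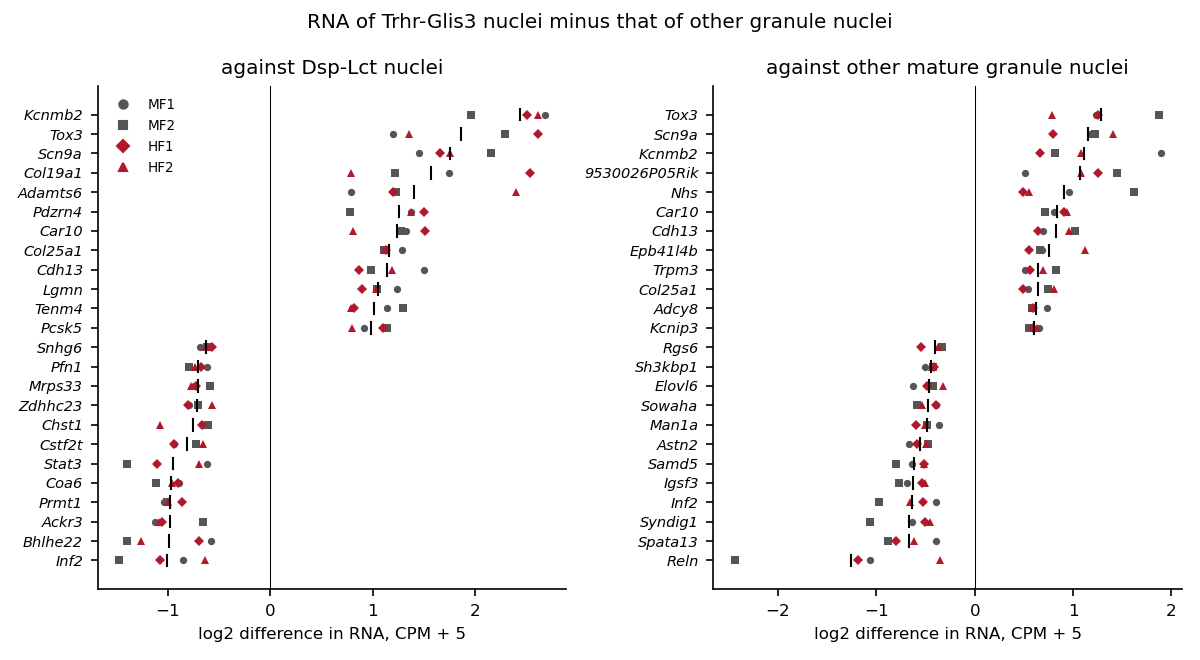
Difference in RNA, as log2(CPM + 5) in members minus that in Dsp-Lct nuclei (left) or in other mature granule nuclei (right), for the 12 genes named each way (y axis), with 1 point a library (MF grey, HF red) and a bar at the mean. Every point of a named gene lies on the same side of 0, which the naming rule required. The highest mean is that of Kcnmb2 on the left (2.44) and the lowest that of Reln on the right (-1.26).

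Families related to the rule genes were mixed in RNA. Genes that the rule uses are left out of the counts that follow, which are of genes on 1 side in all 4 libraries. They are read beside 9.84% higher and 13.1% lower of all genes against Dsp-Lct nuclei, and 9.65 and 14.4% against other mature nuclei. Of 3 anoctamins measured against Dsp-Lct nuclei 2 were higher and 0 lower, Ano3 at 0.61 and Ano4 at 1.14 (mean differences in log2), and against other mature nuclei 1 was higher, with Ano3 at 0.42 and Ano4 at 0.15. Of 3 TRPC channels 0 were higher and 0 lower against Dsp-Lct nuclei, with Trpc4 and Trpc5 at -0.30 and -0.35, and 0 and 2 against other mature nuclei. Of 22 measured genes of the Gq-phospholipase C path, which the thyrotropin-releasing hormone receptor feeds, 4 were higher and 4 lower against Dsp-Lct nuclei, with a median of -0.07 beside -0.02 over all genes, and 3 and 9 against other mature nuclei. Of 20 cadherins 5 were higher and 1 lower against Dsp-Lct nuclei, and of 19 against other mature nuclei 5 and 4. Of 28 potassium channel genes 4 were higher and 2 lower against Dsp-Lct nuclei (median 0.07), and 4 and 6 against other mature nuclei (median -0.03).

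Genes known for a place along the hippocampal axis lay on both sides. Of 17 measured genes of a temporal or ventral list, 5 were higher and 3 lower in members than in Dsp-Lct nuclei in all libraries, with a median difference of 0.33. Tox3 (1.87) and Rbms3 (0.94) were among the higher genes and Dkk3 (-0.52) and the mineralocorticoid receptor Nr3c2 (-0.34) among the lower. Against other mature nuclei, 4 of 18 were higher and 6 lower, with a median of 0.12, and Rbms3 stood at -0.03. The serotonin receptor Htr2c averaged 1.69 against Dsp-Lct nuclei and ranged from -0.20 to 3.38 over libraries. Of 8 genes of a septal or dorsal list, 3 were higher and 3 lower against Dsp-Lct nuclei, and 2 and 4 against other mature nuclei. The Eph receptors Epha7 and Epha5 and the transcription factor Zbtb20 were the lower ones against Dsp-Lct nuclei (-0.50, -0.42 and -0.28), and Cdh13 (1.14), Gsg1l (0.81) and Pantr1 (0.22) the higher. Of 18 granule identity genes 2 were higher and 6 lower in all libraries against Dsp-Lct nuclei (median -0.22), and 1 and 6 against other mature nuclei (median -0.06). Of 77 ribosomal protein genes 0 were higher and 36 lower in all libraries against Dsp-Lct nuclei (median -0.33), and 0 and 38 against other mature nuclei (median -0.19), with no test. Together they took 1.18 and 0.737% of the UMIs of members in MF1 and MF2, and 1.06 and 0.543% in HF1 and HF2. In Dsp-Lct nuclei they took 1.52, 1.17, 1.06 and 0.741%, so in HF1 the shares were equal to the digits given.

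Levels were also followed across V minus D, as a description. Mature nuclei with Slc17a7 and little oligodendrocyte RNA were summed by library in bins from -2 or less to 3 or more, with 103, 210, 351, 393, 286 and 213 nuclei. Cdh13 RNA averaged 133, 133, 144, 201, 234 and 366 CPM along the bins, and Tox3 RNA 8.00, 8.18, 8.83, 21.2, 29.3 and 52.2 CPM. Syndig1 RNA averaged 134, 132, 117.1, 117.3, 84.2 and 66.5 CPM, with its largest step at the border of the members. The rule does not count these 3 genes, but they were named because their RNA differed between high and lower V minus D in these nuclei. That choice fixed the direction of their trend and favoured a step at the border. Trhr and Lct, which the rule counts, went from 0 to 56.0 and from 51.0 to 5.35 CPM. Accessibility, as insertions over the regions of a gene scaled in the same way (ATAC CPM), was summed over the same bins. For Lct it averaged 80.5, 72.2, 58.3, 66.9, 58.2 and 48.9 ATAC CPM, and that of Sorcs3 68.3, 111, 110.2, 132, 122.4 and 139. Both are shown for their accessibility differences between members and Dsp-Lct nuclei, so the ends of these trends were fixed by that choice too. Glis3 accessibility stayed between 319.6 and 339.7 ATAC CPM, and its RNA, which the rule counts, was at 249, 332, 402, 384, 513 and 554 CPM.

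**Figure D3:**
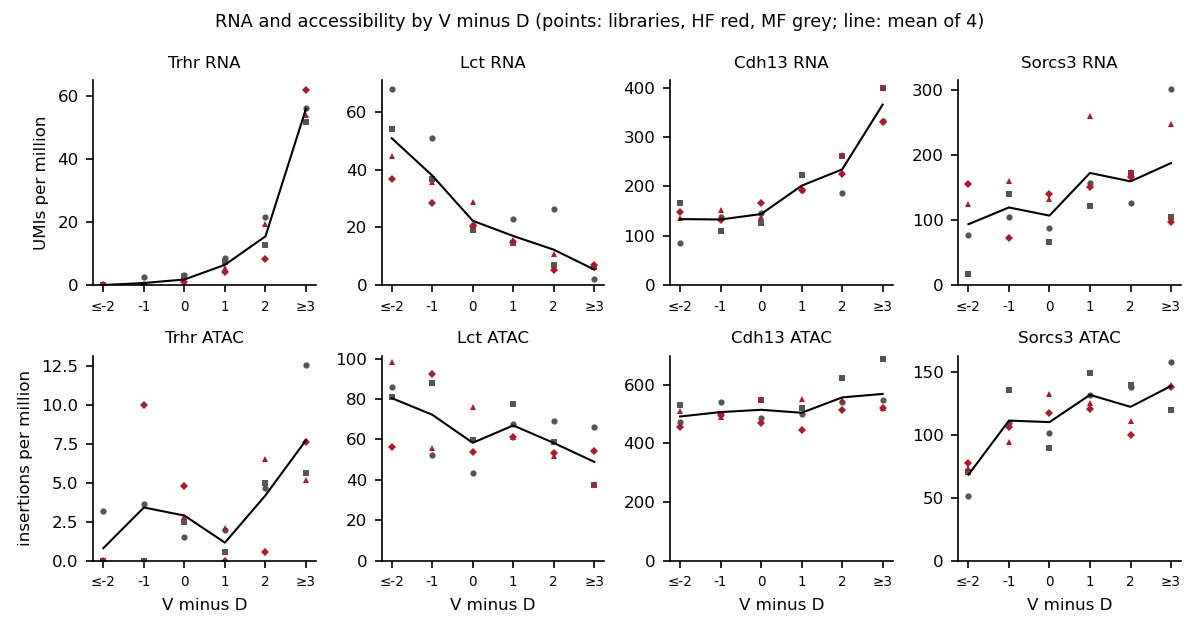
RNA (upper row, CPM) and accessibility (lower row, ATAC CPM over the gene's regions) of Trhr, Lct, Cdh13 and Sorcs3 by V minus D (x axis), with 1 point a library (HF red, MF grey) and a line through the mean of 4 libraries. Trhr RNA stands at 56.0 and Lct RNA at 5.35 CPM in the highest bin, while Cdh13 accessibility goes from 491 to 568 ATAC CPM.

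Accessibility was not used by the rule and was tested between types, with the library as a block. Insertions were summed over the regions that touch a gene body or the 2000 bases before its start, and levels are given as insertions scaled to 1000000 (ATAC CPM). Of 19603 genes, edgeR called 2 between members and Dsp-Lct nuclei (0.0102% at a false discovery rate, FDR, under 0.05), and 1153 had an unadjusted p under 0.05. Sorcs3, a sorting receptor of neurons, was more open in members, at 144, 126, 116 and 119.9 ATAC CPM in MF1, MF2, HF1 and HF2 against 58.1, 69.7, 78.4 and 71.9, a log2 fold change of 0.86 ± 0.15 (SE, FDR = 0.000997). The groups did not overlap. The call was lost without MF1 (0.71, FDR = 0.234), without doublets (0.71, FDR = 0.559), with both types cut at a difference of 3 (1.12, FDR = 0.9997) and over 2 kb around the start only (0.73, FDR = 0.990). It held without each of the other 3 libraries. The other called gene was Gm10800, read from 1 region, which was lower by 0.26 ± 0.04 (SE, FDR = 1.8e-05), at 2234 to 2829 against 2493 to 3719 ATAC CPM. That single region held 6209 to 8719 insertions in members of a library, against 316 to 467 over the 37 regions of Sorcs3. Whether so high a signal reflects the opening of a gene was not tested. Without HF1 its FDR was 0.225. Of 62830 single regions 0 were called (0%), with 3066 at an unadjusted p under 0.05 and a smallest FDR of 0.640. DESeq2 also called 0 regions.

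None of the 13 genes of the rule that were tested was called in accessibility. Lct was less open in members, at 62.0, 50.8, 52.3 and 44.0 against 87.8, 84.4, 62.0 and 102 ATAC CPM, with a log2 fold change of -0.70 ± 0.18 (SE) and an unadjusted p of 0.00014 that did not pass (FDR = 0.187). Npnt stood at -0.65 ± 0.23 (FDR = 0.683) and Gmnc at 0.74 ± 0.36 (FDR = 0.845). Gmnc overlapped between the types, since MF1 had 25.5 ATAC CPM in Dsp-Lct nuclei and 17.3 in members. Glis3, Trpc6 and Ano2 lay at -0.03 ± 0.09, -0.05 ± 0.28 and 0.03 ± 0.13. Trhr touched 1 region, which was too low to be tested here. Of the 12 genes named as higher in RNA, 10 had a positive fold change in accessibility, beside 51.3% of all genes tested, and of the 12 named as lower, 9 had a negative one. Of the 12 genes named as higher in RNA against other mature nuclei, 6 had a positive fold change in accessibility in that comparison, beside 49.9% of all genes, and of the 12 named as lower 9 had a negative one. None of the 24 named against Dsp-Lct nuclei was called there, and Tenm4 was nearest (0.30 ± 0.08, SE, FDR = 0.364).

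The sequences behind these values are shown for the Lct and Gmnc promoters and for the regions of Lct and Sorcs3 with the smallest p, because Sorcs3 was called and Gmnc and Lct had the largest fold changes among the genes of the rule. The Lct promoter (chr1:128328269-128328568, minus strand, GRCm38.p6) and the Gmnc promoter that lies in the tested region (chr16:26968196-26968495, minus strand) run from 250 bases before the start to 50 after it, by RefSeq. The Lct intron window (chr1:128324827-128325126) and the Sorcs3 intron window (chr19:48260731-48261030), both written on the plus strand, are the central 300 bases of 1 region each. Capitals mark CAGATG or its complement CATCTG, an E-box form that factors such as NeuroD1 are known to bind.
Lct promoter: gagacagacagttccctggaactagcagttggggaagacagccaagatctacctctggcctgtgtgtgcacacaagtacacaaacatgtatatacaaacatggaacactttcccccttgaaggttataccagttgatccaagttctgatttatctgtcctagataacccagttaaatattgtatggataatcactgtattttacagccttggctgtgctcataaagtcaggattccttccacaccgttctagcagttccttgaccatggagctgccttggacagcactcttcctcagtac
Gmnc promoter: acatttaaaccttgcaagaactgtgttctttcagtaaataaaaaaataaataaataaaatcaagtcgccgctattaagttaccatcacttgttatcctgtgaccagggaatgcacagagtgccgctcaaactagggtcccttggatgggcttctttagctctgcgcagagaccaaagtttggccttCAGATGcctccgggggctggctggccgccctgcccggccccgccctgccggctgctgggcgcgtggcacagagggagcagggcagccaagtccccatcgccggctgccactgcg
Lct intron: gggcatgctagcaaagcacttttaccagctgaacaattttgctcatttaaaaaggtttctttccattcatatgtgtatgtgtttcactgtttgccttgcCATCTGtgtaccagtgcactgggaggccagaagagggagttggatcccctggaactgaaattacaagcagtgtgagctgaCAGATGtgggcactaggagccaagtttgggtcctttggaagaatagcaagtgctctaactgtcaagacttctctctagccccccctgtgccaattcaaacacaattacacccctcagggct
Sorcs3 intron: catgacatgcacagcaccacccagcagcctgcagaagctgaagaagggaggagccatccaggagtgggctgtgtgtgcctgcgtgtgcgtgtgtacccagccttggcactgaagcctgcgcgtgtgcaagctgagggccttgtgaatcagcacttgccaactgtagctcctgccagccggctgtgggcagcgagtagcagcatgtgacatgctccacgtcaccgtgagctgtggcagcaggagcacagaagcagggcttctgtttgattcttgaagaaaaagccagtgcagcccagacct
The E-box letters stood 1 time in the Gmnc promoter and 2 times in the Lct intron window, and in neither of the others. On either strand they were found in 17.15% of 32851 RefSeq promoters and in 35.12% of 253686 region centres of the same length. The cyclic AMP response element TGACGTCA (1.79% of promoters, 0.5% of region centres) and the RFX half-site GTTGCC (12.51 and 12.09%) were searched too, on both strands, and were not in these 4 windows. The matches are letters only.

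Insertions in single regions are given as unscaled sums over 114 to 170 members and 23 to 36 Dsp-Lct nuclei a library. The Lct intron region (chr1:128324515-128325437) lies 2881 bases from the start of Lct and held 27, 60, 41 and 25 insertions in members against 11, 15, 18 and 14 in Dsp-Lct nuclei. Its log2 fold change was -1.002 ± 0.36 (SE, FDR = 0.991 in edgeR). The Sorcs3 intron region (chr19:48260422-48261338) held 34, 52, 72 and 53 insertions in members and 2, 9, 8 and 2 in Dsp-Lct nuclei, with a log2 fold change of 0.9998 ± 0.46 (FDR = 0.991). The region at the Gmnc start held 8, 32, 28 and 33 insertions in members and 4, 2, 0 and 3 in Dsp-Lct nuclei (1.06 ± 0.75, FDR = 0.991). None of the 3 passed on its own.

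Against other mature granule nuclei, with the limits on oligodendrocyte RNA and Slc17a7 on both sides, edgeR called 4 of 21741 genes (0.0184%), all less open in members, and 1595 had an unadjusted p under 0.05. They were Gm10800 (-0.14 ± 0.02, SE), Gm45740 (-0.37 ± 0.06), Crlf2 (-0.35 ± 0.07) and the olfactory receptor Olfr309 (-2.32 ± 0.49), with FDR from 0.000761 to 0.0388. Gm10800 and Olfr309 were each read from 1 region. That of Olfr309 held only 4, 6, 2 and 10 insertions over all members, and stood at 0.535 to 1.87 against 4.08 to 6.85 ATAC CPM here. Only 1 gene was called without MF1 and 1 without MF2, and DESeq2 called 0. Gm10800 stood at 0.04 when all nuclei of the gate were compared. Trhr, at 8.03, 5.29, 3.62 and 5.98 ATAC CPM in members and 2.32, 1.02, 3.01 and 1.71 in the others, had a log2 fold change of 1.49 ± 0.45 and did not pass (FDR = 0.335). Its groups did not overlap, at a low level of 1 region. Cdh13 (0.15 ± 0.04) and Tenm4 (0.17 ± 0.04), which were named from RNA, had the same FDR of 0.199. Sorcs3 was at 0.16 ± 0.07 (FDR = 0.647). Of 119541 single regions 0 were called (0%), with 7583 at an unadjusted p under 0.05. DESeq2 called 0 regions here as well.

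**Figure D4:**
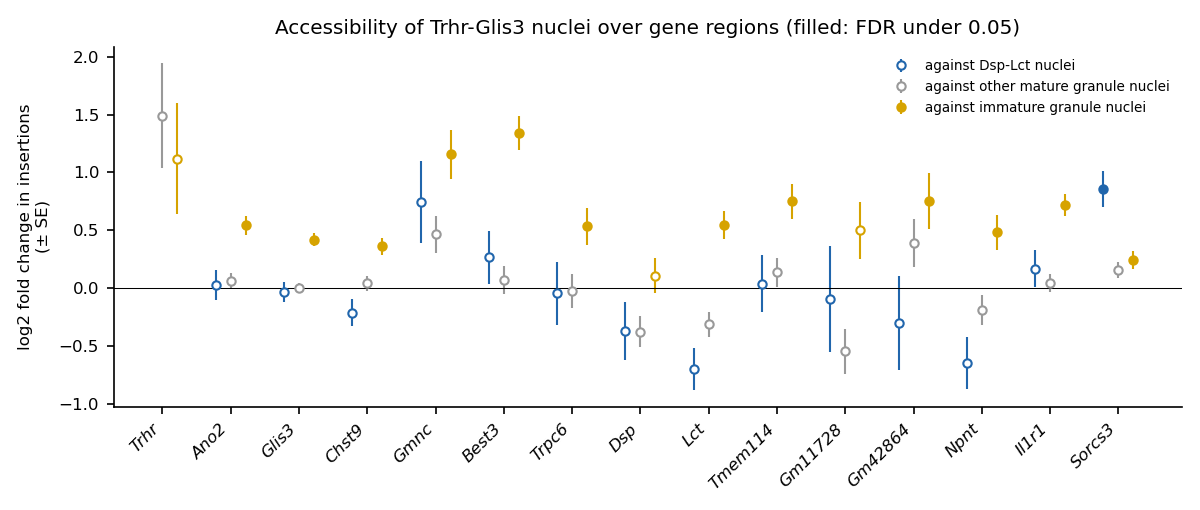
Log2 fold change in insertions of members against Dsp-Lct nuclei (blue), other mature granule nuclei (grey) and immature granule nuclei (yellow) for the 14 genes of V and D and for Sorcs3 (x axis), with bars of 1 SE and filled points where the FDR is under 0.05. Between mature types Sorcs3 alone is filled, while against immature nuclei 6 of 7 genes of the Trhr-Glis3 side and 5 of 7 of the Dsp-Lct side are filled, all above 0.

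Genes of both sides of the rule were more open in members than in immature granule nuclei. Of 21671 genes, 3904 were called as more open in members (18.0%) and 3693 as less open (17.0%). Called higher were 6 of the 7 genes of the Trhr-Glis3 side, with Best3 at 1.34 ± 0.15 (SE) and Gmnc at 1.16 ± 0.21, and 5 of the 7 genes of the Dsp-Lct side, with Gm42864 at 0.76 ± 0.24, Tmem114 at 0.75 ± 0.15 and Il1r1 at 0.72 ± 0.09. None of the 14 was called lower. The 4 immature-stage genes of the gate were all less open, Cd24a by most (-3.01 ± 0.20, FDR = 1.8e-25). The same nuclei had been sorted on the RNA of these 4 genes, and members on that of V and D, so these directions are not independent of the gate. With only nuclei that had Slc17a7 and little oligodendrocyte RNA on both sides 2838 of 20702 genes were called, 1552 as more open (7.50%) and 1286 as less open (6.21%). More open then were 5 of 7 genes of the Trhr-Glis3 side and 3 of 7 of the Dsp-Lct side, and none was less open.

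Gene lists were counted in the same comparison. Of 20 granule identity genes 13 were called as more open in members and 3 as less open, with Calb1 at 1.65 ± 0.23 and C1ql2 at 0.93 ± 0.13. Less open were Neurod1 (-1.06 ± 0.11), Neurod2 and Tspan18, of which the first are known for driving early neuronal differentiation. Of 19 immature granule genes 1 was higher and 14 were lower, with Tac2 at -1.58 ± 0.27 and Tubb2b, a tubulin of growing neurites, at -1.19 ± 0.15. Of 31 potassium channel genes 16 were more open and 6 less, with Kcnip4 at 1.12 ± 0.06 and Kcnd2 at 1.04 ± 0.08. Of 12 GABA-A receptor genes 8 were more open, while Gabrg1 was less open (-0.59 ± 0.22). Among 16 Gli, Glis and Zic genes 11 were less open, with Zic1 at -2.29 ± 0.23, while Glis3 (0.42 ± 0.05) and Smo were more open. Slc17a7 was detected in 43.2% of immature nuclei against 88.7% of members. Between limited nuclei the log2 fold changes of Calb1, Kcnip4 and Kcnd2 were 0.87 ± 0.27, 0.71 ± 0.08 and 0.53 ± 0.09. That of C1ql2 stayed at 0.93 ± 0.16. With the limits on both sides, where 7.50% of all genes were called as more open and 6.21% as less open, the called counts (more open, less open) were 9 and 3 of the identity genes, 0 and 8 of the immature granule genes, 11 and 5 of the potassium channels, 1 and 0 of the GABA-A genes (Gabrb1) and 2 and 5 of the Gli, Glis and Zic genes.

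The share of members among mature granule nuclei differed more between the MF libraries than between the diets. Their share was 21.6% in MF1 (114 of 529, 95% Wilson interval 18.3 to 25.3), 29.3% in MF2 (139 of 474, 25.4 to 33.6), 27.0% in HF1 (170 of 629, 23.7 to 30.6) and 28.0% in HF2 (169 of 603, 24.6 to 31.7). The intervals cover counting error only. The mean was 25.4 ± 5.50% in MF and 27.5 ± 0.707% in HF (SD, n = 2), a difference of 2.09 points (exact two-sided permutation p = 1, with a smallest possible p of 0.333). MF1 was the low library, and without it the difference was -1.80 points. After nuclei were thinned to 4000 UMIs it was -0.0229 points, and with V minus D of 1 or more it was 6.24 points (exact permutation p = 0.333).

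No gene passed between diets within the members in the fit without a block. edgeR called 0 of 11365 genes at FDR under 0.05 and 1.2-fold (0%), with 233 at an unadjusted p under 0.05. DESeq2 also called 0. With a library left out the count was 17 without MF1, 17 without MF2, 15 without HF1 and 19 without HF2. Genes that the rule counts are not compared between diets, since every member was selected on them. As a description, Trhr was at 31.9 and 29.6 CPM in members of MF1 and MF2 and at 30.7 and 30.6 CPM in those of HF1 and HF2.

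The genes of smallest p each way are given as not called. Rmst, a long noncoding RNA, was at 30.3 and 37.9 CPM in MF and 109 and 82.7 CPM in HF (1.52 ± 0.25, FDR = 0.322), and the 3 nuclei richest in it held 52.9 to 87.2% of its UMIs in a library. Cdh19 (2.00 ± 0.36) and Ugt8a (1.73 ± 0.32), both known from glia that make myelin or their lineage, had the same FDR. In limited members Cdh19 stood at 0.888 and 5.32 CPM in MF and 8.75 and 5.41 CPM in HF, and it was not tested there. Rxfp1, a relaxin receptor, was at 3.005 ± 0.69 with an FDR near 1. Its 3 richest nuclei held 83.3 to 100% of its UMIs in a library. Mbp, a main myelin gene, was at 0.99 ± 0.25, and at 0.47 in the 499 members with little oligodendrocyte RNA. On the lower side were Atp13a5 (-3.06 ± 0.67), 4921539H07Rik (-1.09 ± 0.26), Tll1 (-0.92 ± 0.24) and the haemoglobin gene Hba-a1 (-1.47 ± 0.39). The 4 haemoglobin genes summed to 811 CPM in MF1 and to 165 to 188 CPM in the other 3 libraries. Ttr, a choroid plexus gene, was at 81.0 CPM in HF1 and at 0 to 6.22 CPM elsewhere. The part of these transcripts in the differences was not tested.

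None of the genes taken up from the study was called in the members. The study reported Jph1 as higher and Tpt1 as lower in HF in dentate gyrus neurons, and Cmss1 and Filip1l as lower in excitatory neurons. It used Wilcoxon rank sum tests on these broader groups, while the tests here compared sums per library within the members. The directions were the same here, in the same samples, and are not independent evidence. Jph1, a junctophilin that ties the plasma membrane to the endoplasmic reticulum, was at 252 and 287 CPM in MF and 314 and 302 CPM in HF (0.24 ± 0.23, SE). Tpt1 was at 261 and 171 CPM against 219.9 and 127 CPM (-0.26 ± 0.26). Cmss1 was at -0.53 ± 0.33 and Filip1l, at 45.8 and 62.2 against 24.4 and 35.6 CPM, at -0.80 ± 0.29 (unadjusted p = 0.016, FDR near 1). Of 78 ribosomal protein genes tested, a family taken up here because the study wrote of it from these samples and so not independent evidence of a direction, 65 were lower in HF and 0 had an unadjusted p under 0.05. The median was -0.19 beside 0.0006 over all genes. In the ribosomal shares of UMIs given above, libraries of the same diet differed by more than the diet means. Of 20 folate and one-carbon genes tested, 0 had an unadjusted p under 0.05.

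Of 101172 regions, 0 were called between diets in the members (0%), with 3837 at an unadjusted p under 0.05 and a smallest FDR near 1. DESeq2 also called 0. The region with the smallest p, in a coding exon of Mucl3 and Sfta2 (chr17:35638487-35639409), held 1 and 1 insertions in MF and 31 and 16 in HF. Without a library the count was 0 without MF1, 3 without MF2, 10 without HF1 and 1 without HF2.

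The diet difference of the members was compared with that of Dsp-Lct nuclei as an interaction. Of 9750 genes 11 were called (0.113%), 2 with a higher and 9 with a lower HF-minus-MF difference in members. Sgcd, a sarcoglycan, was at 171, 261, 290.3 and 226 CPM in members of MF1, MF2, HF1 and HF2 and at 125, 101.3, 783 and 425 CPM in Dsp-Lct nuclei (-2.13 ± 0.29, SE, FDR = 0.00106). The neurexin relative Cntnap2 was at 1332, 1256, 1119.5 and 1271 CPM in members and 711, 859, 1528 and 1828 CPM in Dsp-Lct nuclei (-1.29 ± 0.17, FDR = 0.00106). In both genes the members of the diets overlapped and the Dsp-Lct nuclei did not. The members' own diet difference in these genes was not called. The Dsp-Lct sums rest on 23 to 36 nuclei a library, and the 3 richest nuclei held 48.1 to 93.7% of Sgcd UMIs there and 34.6 to 59.5% in members. Mbp, the myelin gene, was also called (1.39 ± 0.28, FDR = 0.045). Galntl6 and Pex5l, both called, are on a list of 12 CA1 and CA3 neuron markers, none of which was at 0 in either type. The list summed to 885 and 1317 CPM in MF and 2121 and 2165 CPM in HF in Dsp-Lct nuclei, where the diets did not overlap, against 1813, 1868, 1518 and 1780.5 CPM in members. Without these genes the other 10 summed to 390.1, 473, 574 and 498 CPM in Dsp-Lct nuclei and 511 to 578 CPM in members. The 8 oligodendrocyte genes other than Mbp summed to 478, 235, 804 and 511 CPM in members and 393, 491, 312 and 413 CPM in Dsp-Lct nuclei. The part of these cell types in the calls was not tested. With nuclei limited by Slc17a7 and oligodendrocyte RNA on both sides, the 9 genes with a lower difference stood at -2.59 to -0.95, beside -2.67 to -0.99. Mbp stood at 0.35 and Pde4b at 0.61, beside 1.39 and 1.198. Among limited nuclei 0 genes were called, at a smallest FDR of 0.0679. The count was 41 without MF1, 28 without MF2, 13 without HF1 and 43 without HF2.

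**Figure D5:**
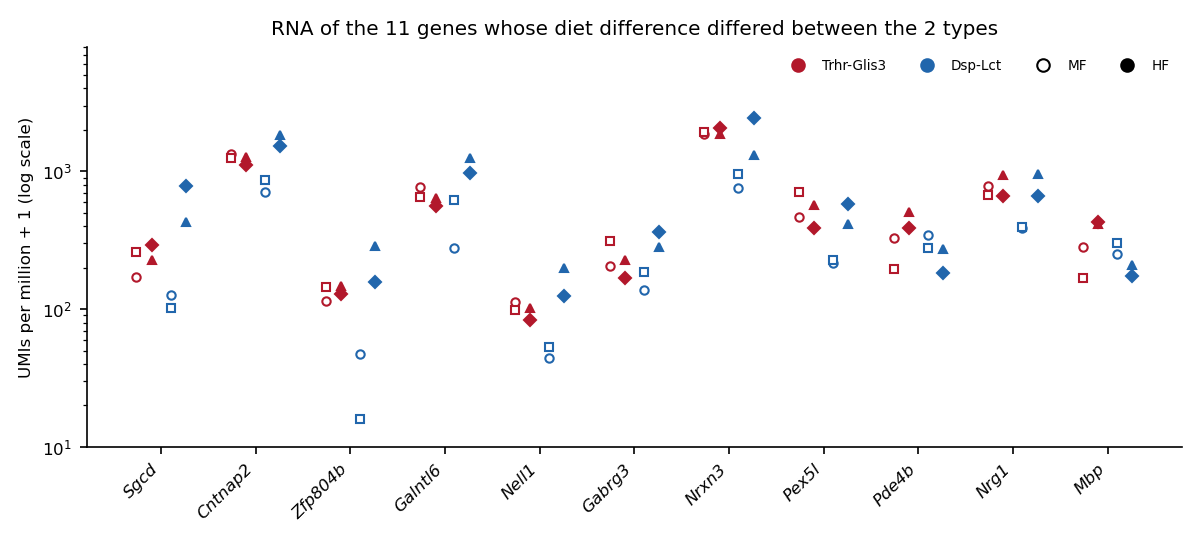
RNA (CPM plus 1, log scale) of the 11 genes called for the interaction (x axis) in members (red) and Dsp-Lct nuclei (blue), with open symbols for MF and filled symbols for HF, 1 point a library. Sgcd in Dsp-Lct nuclei goes from 125 and 101.3 CPM in MF to 783 and 425 CPM in HF, while members stay between 171 and 290.3 CPM.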

How the data were processed

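RNA and open chromatin were measured in single nuclei of 4 libraries, 2 from each diet. The authors made the deposited counts with Cell Ranger ARC 2.0.1 on mm10: UMI counts per gene, and ATAC counts per peak, which were called in each library separately and are read here as insertions because 81.1 to 83.1% of the values were even. A nucleus was retained at 500 to 7000 genes, 1000 to 70000 ATAC counts and a mitochondrial share of UMIs under 2%. The nucleosome and start-site filters of the study were not applied here. Peaks were merged into 253724 regions, of which the 154783 found in all 4 libraries were used.

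Counts were summed per library and type. edgeR 4.0.16 (quasi-likelihood, Benjamini-Hochberg adjustment, R 4.3.3) gave all adjusted p-values printed, with DESeq2 1.42.0 as an alternative, and Scanpy 1.11.5 gave Scrublet scores. Type contrasts of accessibility had the library as a block. Diet contrasts had none. The scripts were tested on simulated data. RNA between types was described on log2(CPM + 5), with no test. Named genes were, for RNA, the 12 each way with at least 20 CPM in the higher type and the largest smallest difference within a library, and for diet the called genes up to 10, or else the 4 of smallest p each way, with Jph1, Tpt1, Cmss1 and Filip1l. All 11 genes called for the interaction are named. The members and gene lists were chosen with earlier results of these data known. Comparisons with other mature and with immature granule nuclei, and the limits on Slc17a7 and oligodendrocyte RNA, were added after seeing the data, as were the counts on CPM with no pseudocount. Some genes of the lists are not reported here. Alternatives changed the normalization, filters, border, depth, doublets, region set and block, and left out each library. The same-numbered libraries deviated together (r = 0.496 over 3018 genes), but there are only 2 such pairs and the labels do not tie them.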

Additional observations from a re-analysis of the deposited data

Results flagged for a closer look

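The diet difference (HF minus MF, log2) of 11 genes differed between members and Dsp-Lct nuclei by the interaction term in edgeR, at FDR from 0.00106 to 0.0450. It was lower in members for Zfp804b (-2.67), Sgcd (-2.13), Nell1 (-2.03), Galntl6 (-1.70), Pex5l (-1.50), Gabrg3 (-1.47), Cntnap2 (-1.29), Nrxn3 (-1.12) and Nrg1 (-0.99), and higher for Mbp (1.39) and Pde4b (1.198). The sign turned for Pde4b when doublets were left out, and for Nrg1 when both types were cut at a difference of 3. Cntnap2 and Nrxn3 encode neurexin family proteins, Gabrg3 a GABA-A receptor subunit and Nrg1 a neuregulin. In Dsp-Lct nuclei, of which there were 23 to 36 a library, the 3 richest nuclei held 36.5 to 100% of the UMIs of such a gene in a library, and in members 15.5 to 64.9%. With nuclei limited by Slc17a7 and oligodendrocyte RNA, Mbp stood at 0.35 and Pde4b at 0.61, and 0 of the 11 were called. The genes with a lower difference in members stood at -2.59 (Zfp804b) to -0.95 (Nrg1) there, with Sgcd at -1.94. Galntl6 and Pex5l are on the list of 12 CA1 and CA3 neuron markers, which summed to 885 and 1317 CPM in MF and 2121 and 2165 CPM in HF in Dsp-Lct nuclei and to 1518 to 1868 CPM in members. Without these genes the sum in Dsp-Lct nuclei was 390.1 and 473 CPM in MF and 574 and 498 CPM in HF. The part of single nuclei or of other cell types in these values was not tested.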

How the results depend on the processing

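Calls were few and moved with the settings, and the causes were not tested. Against Dsp-Lct nuclei, genes called for accessibility numbered 5 with no filter on low counts, 1 with no library block, 0 at V minus D of 3, 1 without doublets, 0 over 2 kb around the start and 1 to 2 with a library left out, beside 2, and regions numbered 4 with no filter, beside 0. Against other mature nuclei, genes numbered 0 with DESeq2, 0 with no library block, 14 for fragments, 2 without doublets, 1166 with all nuclei of the gate and 1 to 6 with a library left out, beside 4. Regions there numbered 13 with no filter, 13 for fragments, 1 without doublets and 3020 with all nuclei, beside 0. Against immature nuclei, 4745 genes were called by DESeq2 and 2838 with both sides limited, beside 7597, and 5984 to 6404 with a library left out. For RNA, the count against Dsp-Lct nuclei was 31 at V minus D of 3, 11 after thinning, 36 at 1.5-fold, 10 with no pseudocount, 5 with limited nuclei, 14 without doublets and 7 to 13 with a library left out, beside 4, and against other mature nuclei 149 with all nuclei of the gate, 10 at a pseudocount of 1 CPM, 13 with none and 10 to 12 with a library left out, beside 5.

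Between diets, genes in members numbered 15 with no filter, 1 without doublets, 27 with the replicate block and 15 to 19 with a library left out, beside 0. Regions numbered 0 to 10 with a library left out and 0 with the replicate block. Leaving out a library left 1 sample in an arm, which is then assumed to vary like the other diet. The interaction gave 0 genes with limited nuclei, 3 by DESeq2, 25 with no filter, 23 at V minus D of 3, 5 with the replicate block in place of the library block and 13 to 43 with a library left out, beside 11. The share difference was -0.0229 points after thinning, 3.33 among limited nuclei and -1.80 to 5.98 with a library left out, and 2.09 with the replicate block. Signs turned for Pde4b (-0.249, doublets left out), Nrg1 (0.0609, V minus D of 3), Gm10800 against other mature nuclei (0.0392, all nuclei) and Pfn1 (0.331, V minus D of 3). Of 121 single values of interaction genes, 43 lost their call. The median SE of a gene's log2 fold change in accessibility was 0.24 against Dsp-Lct nuclei (23 to 36 nuclei a library) and 0.13 against other mature nuclei.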
